A study of Mus musculus with 6 samples.

Results

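The clock output genes described here are 9 genes that the circadian clock drives or that feed back on it, namely Dbp, Tef, Hlf, Nfil3, Bhlhe40, Bhlhe41, Ciart, Rora and Usp2. They were listed by name, with earlier results of these data already known, and all 9 were found among the 55487 genes of the count table. Liver RNA from 6 wild-type male C57BL/6J mice, all on normal chow and 17 weeks old at collection, was sequenced with 1 library per mouse. The control group of 3 mice received GalNAc-siNC, a nontargeting siRNA joined to N-acetylgalactosamine, a sugar that the asialoglycoprotein receptor of hepatocytes takes up. The other 3 mice received GalNAc-siRnf10, the same kind of conjugate against the ubiquitin ligase gene Rnf10, which the study calls GalNAc-siRnf10-2. Injections were subcutaneous in both groups, and the hour of day at which livers were taken is not given in the sources used here. Reads came from whole liver, so every value mixes hepatocytes with the other cells of the organ.

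In the liver clock, CLOCK and BMAL1 (encoded by Arntl) bind E-boxes and switch on their own repressors along with output genes. Dbp, Tef and Hlf encode the PAR-bZIP factors, which activate genes through D-boxes, and Nfil3 encodes a repressor that binds the same D-boxes. Bhlhe40 and Bhlhe41 (DEC1 and DEC2) and Ciart (CHRONO) encode repressors of CLOCK and BMAL1. Rora encodes a nuclear receptor that competes with the REV-ERB repressors for 1 kind of element, and Usp2 encodes a ubiquitin-specific protease under clock control. Many of these transcripts rise and fall over each day in liver, with Nfil3 out of phase with Dbp.

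Total counts were between 26854377 and 33058645 per library, at which 3 counts make up at most 1.12e-05% of a library, and every clock output gene had at least 82 counts in every mouse. Counts were scaled to a common library size by edgeR's TMM factors, and these are called normalized counts. Rnf10 itself had a normalized count of 3869, 4536 and 4040 in the control mice and 1738, 1820 and 1793 in the knockdown mice, a log2 fold change of -1.22 (SE 0.0715). GalNAc-siNC mouse 1 stood apart from the other controls: the chi-square per gene was 30.8 and 30.1 between it and mice 2 and 3, against 10.3 between those mice and 4.70 to 5.38 within the knockdown group. Where this mouse moves a value of the clock output genes strongly, the value without it is also given. Albumin (Alb) took 3.72% to 4.36% of the counts in controls and 5.93% to 6.08% in knockdown livers.

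Of the 9 clock output genes, 2 were higher in knockdown livers at an adjusted p under 0.05 and none was lower (quasi-likelihood F-test of edgeR, Benjamini-Hochberg over 14046 tested genes). Ciart rose 2.45-fold and Usp2 rose 1.70-fold. The D-box factors Dbp, Tef, Hlf and Nfil3 and the nuclear receptor Rora did not pass the test, nor did Bhlhe40 and Bhlhe41, whose means were lower. Across all tested genes 14.0% passed, with 6.71% higher in knockdown livers and 7.28% lower. The unadjusted p was under 0.05 for 4 clock output genes, namely Ciart, Usp2, Bhlhe40 and Bhlhe41. With DESeq2 the counts were also 2 higher and 0 lower, and with limma voom they were 2 higher and 1 lower. The median log2 fold change of the 9 genes was -0.024, beside 0.0022 for all tested genes, and the median size regardless of sign was 0.202, beside 0.18. Since the tissue is bulk liver, fewer cells of a type and less RNA per cell cannot be told apart.

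**Figure D1:**
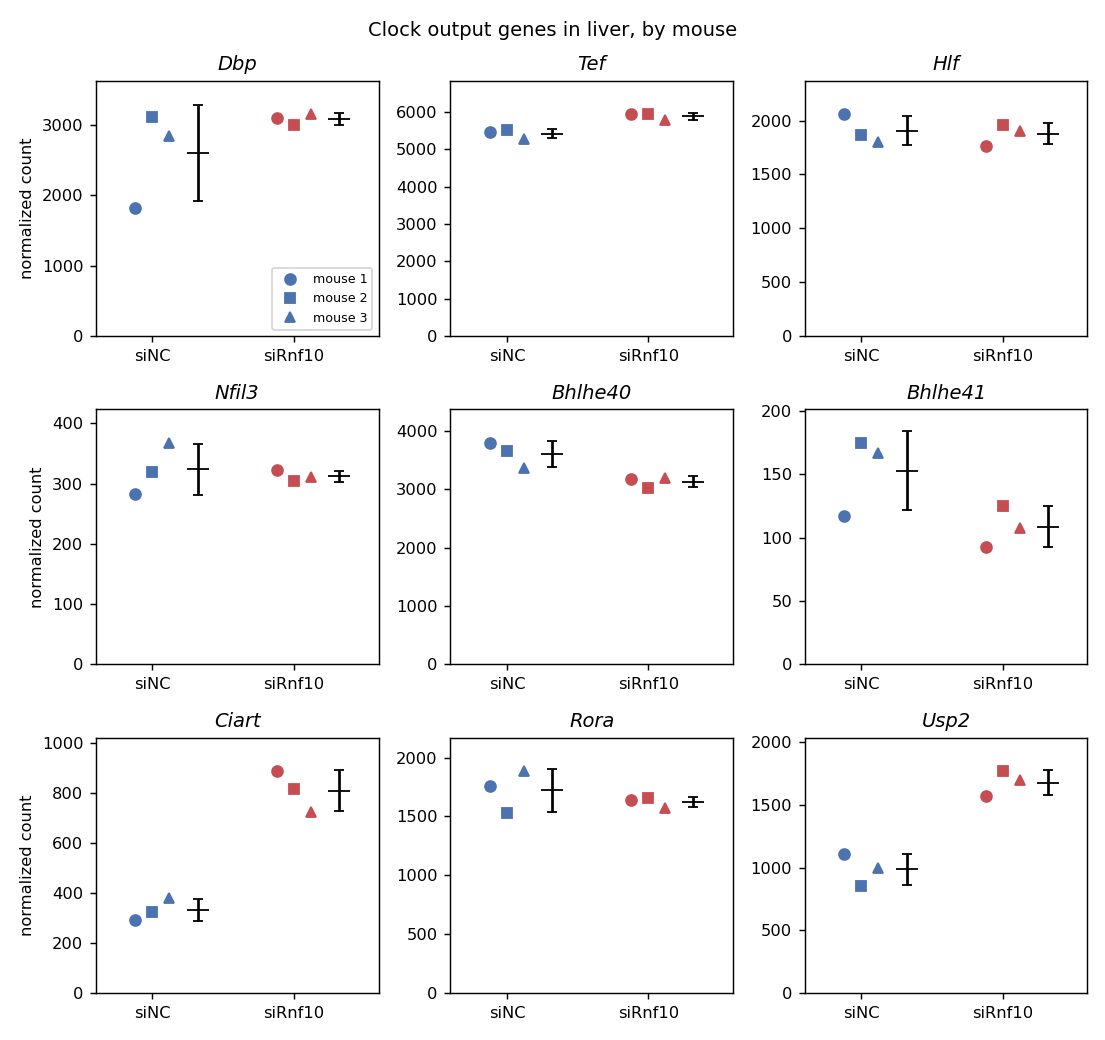
Normalized count (linear axis from 0) of each clock output gene in every mouse, by group, with the mean and SD (n = 3) in black and the marker shape giving the mouse number. The groups are far apart for Ciart and Usp2, and the control spread of Dbp comes from mouse 1 at 1825.

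Ciart, the CHRONO gene (ENSMUSG00000038550, minus strand of chromosome 3, 95878503 to 95882251), showed the largest fold change of the 9 genes. Its normalized count was 292, 322 and 379 in the control mice and 887, 816 and 724 in the knockdown mice. All knockdown livers were above all controls, with no overlap. The mean went from 331 ± 44.6 to 809 ± 81.8 (SD, n = 3 each), a log2 fold change of 1.29 (SE 0.113, 95% interval 1.05 to 1.53, adjusted p = 4.23e-07). This change was larger in size than that of 98.8% of tested genes. It was called in all 15 alternatives tried, with log2 fold changes from 1.20 to 1.40.

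Usp2 (ENSMUSG00000032010, plus strand of chromosome 9, 44067021 to 44095627) was the other gene that rose. Control livers had 1105, 855 and 996 normalized counts, and knockdown livers had 1569, 1769 and 1696. Here too the groups were separate, and mouse 1 was the highest of the controls rather than the lowest as for Ciart and Dbp. The mean was 985 ± 125 with GalNAc-siNC and 1678 ± 101 with GalNAc-siRnf10 (SD, n = 3 each), a log2 fold change of 0.77 (SE 0.0904, 95% interval 0.58 to 0.96, adjusted p = 1.37e-05). All 15 alternatives called it, between 0.67 and 0.86.

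Promoter windows of 300 bases, from 250 before to 50 after each RefSeq transcript start (GRCm38.p6), were found for 8 of the 9 genes (all but Bhlhe40), with 2 windows for Tef. Each was searched on both strands for the E-box CACGTG. The D-box was searched as TTATGTAA, which reads TTACATAA on the opposite strand, and as TTACGTAA. The core of the ROR element was searched as AGGTCA in both orientations. An E-box lay in 4 of the 9 windows, beside 7.15% of all 32851 promoter windows. Because 2 of the 4 are windows of Tef, they belong to 3 of the 8 genes. The windows of Ciart and Usp2 are shown because these genes rose, and those of Tef and Bhlhe41 because they hold an E-box and their genes did not pass the test. Capitals mark the E-boxes, and each sequence runs 5′ to 3′ on the strand of its gene. Ciart is at chr3:95882179-95882478 (minus), Usp2 at chr9:44084670-44084969 (plus), Tef at chr15:81802423-81802722 (plus) and Bhlhe41 at chr6:145865371-145865670 (minus).
Ciart: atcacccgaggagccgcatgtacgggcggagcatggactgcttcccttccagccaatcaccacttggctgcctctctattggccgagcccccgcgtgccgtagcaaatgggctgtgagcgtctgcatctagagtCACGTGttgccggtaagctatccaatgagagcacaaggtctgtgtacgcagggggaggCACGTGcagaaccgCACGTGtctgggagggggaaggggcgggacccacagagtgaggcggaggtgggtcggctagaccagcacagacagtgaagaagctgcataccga
Usp2: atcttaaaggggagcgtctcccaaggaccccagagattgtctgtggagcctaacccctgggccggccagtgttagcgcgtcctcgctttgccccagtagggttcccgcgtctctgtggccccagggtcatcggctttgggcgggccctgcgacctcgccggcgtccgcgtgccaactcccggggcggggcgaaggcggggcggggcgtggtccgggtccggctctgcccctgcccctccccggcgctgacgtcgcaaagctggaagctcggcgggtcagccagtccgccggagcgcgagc
Tef: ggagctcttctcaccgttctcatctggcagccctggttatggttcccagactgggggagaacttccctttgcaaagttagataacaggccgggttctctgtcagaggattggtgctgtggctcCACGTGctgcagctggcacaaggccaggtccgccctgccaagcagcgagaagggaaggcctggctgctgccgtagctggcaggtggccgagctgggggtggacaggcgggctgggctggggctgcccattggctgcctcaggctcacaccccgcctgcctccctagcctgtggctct
Bhlhe41: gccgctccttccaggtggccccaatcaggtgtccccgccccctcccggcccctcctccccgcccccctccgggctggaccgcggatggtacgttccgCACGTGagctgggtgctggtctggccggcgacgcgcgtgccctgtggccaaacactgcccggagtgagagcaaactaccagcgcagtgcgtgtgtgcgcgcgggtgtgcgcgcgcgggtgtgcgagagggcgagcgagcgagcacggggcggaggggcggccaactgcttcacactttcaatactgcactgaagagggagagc

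The Ciart window held 3 E-boxes, which begin 116, 58 and 44 bases before the transcript start. Only 29 of the 32851 windows (0.0883%) held 3 or more. Usp2 rose without any of the searched motifs in its window, which lies at an internal start of the gene, far from the first base of the gene model. Tef had 1 E-box in each window, 127 and 138 bases before its starts, and Bhlhe41 had 1, which begins 153 bases before. No D-box was found in any of these windows, beside 1.06% of all windows. The single ROR core, 12 bases before the start of Nfil3, stood beside a share of 16.3% of all windows. The windows of Dbp, Hlf and Rora held none of the motifs, and no 2 matches overlapped. These are matches of letters, with no measurement of binding.

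**Figure D2:**
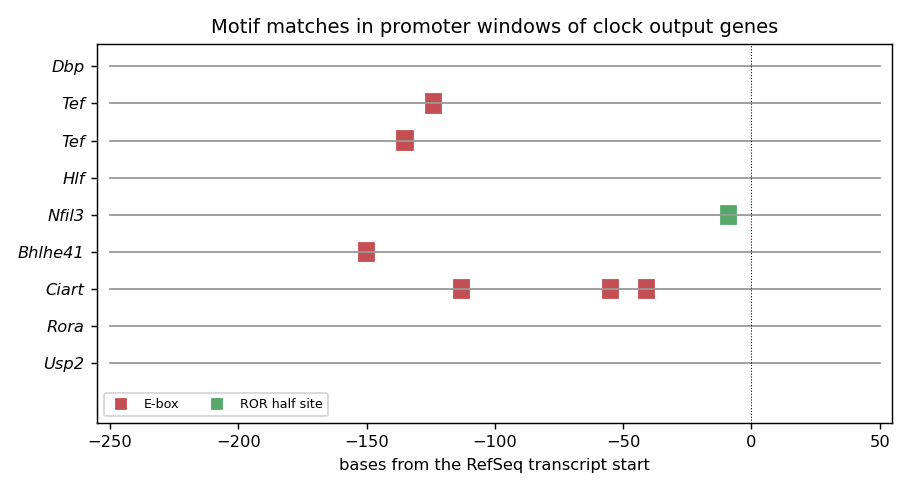
Motif matches in the 9 promoter windows of 8 clock output genes, in bases from the RefSeq transcript start (dotted line), drawn on each gene's strand. Ciart carries 3 E-boxes, each Tef window and Bhlhe41 carry 1, and Nfil3 carries the core of a ROR element.

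None of the PAR-bZIP activators passed the test, and their differences were small or unsteady. Dbp (ENSMUSG00000059824, plus strand of chromosome 7, 45705088 to 45710203) had 1825, 3119 and 2846 normalized counts in controls and 3102, 2993 and 3152 in knockdown livers. Control mouse 1 was far below the other 5 mice, which lay within 2846 to 3152. The log2 fold change was 0.25 (SE 0.209, 95% interval -0.29 to 0.78, adjusted p = 0.532), and without control mouse 1 it was 0.05 (adjusted p = 0.651). Of the exon bases of Dbp, 18.0% are overlapped by Sphk2 on the opposite strand. Sphk2 had 658 to 1265 counts per mouse and a log2 fold change of -0.64 (adjusted p = 0.000217), and whether the counting used the strand is not given in the sources used here, so the value of Dbp is uncertain.

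Tef (ENSMUSG00000022389, plus strand of chromosome 15, 81802421 to 81826863) had 5475, 5513 and 5274 normalized counts with GalNAc-siNC and 5936, 5941 and 5787 with GalNAc-siRnf10. The groups did not overlap, but the gap was small: a log2 fold change of 0.12 (SE 0.0567, 95% interval from just under 0 to 0.24, adjusted p = 0.189). With offsets for GC content and gene length it reached 0.22 (adjusted p = 0.00124). Tef was called in 2 of the 15 alternatives, both with these offsets. Over all 15 the log2 fold change was 0.10 to 0.22, with adjusted p values from 0.00124 to 0.43. Hlf (ENSMUSG00000003949, minus strand of chromosome 11, 90336536 to 90390895) had 2059, 1864 and 1802 in controls and 1769, 1961 and 1901 in knockdown livers. These ranges overlapped, and the 95% interval of the log2 fold change, -0.18 to 0.13, covers both directions.

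Nfil3, the repressor that shares the D-box with these activators (ENSMUSG00000056749, minus strand of chromosome 13, 52967209 to 52981073), was also without a detected difference. Its normalized count was 283, 320 and 368 in the control mice and 322, 304 and 311 in the knockdown mice. The knockdown values all fell inside the control range. The log2 fold change was -0.05 (SE 0.12, 95% interval -0.30 to 0.20, adjusted p = 0.838).

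The E-box repressors Bhlhe40 and Bhlhe41 had lower means in knockdown livers, near the threshold of the test. Bhlhe40 (ENSMUSG00000030103, plus strand of chromosome 6, 108660629 to 108666925) had 3799, 3659 and 3358 normalized counts in controls and 3181, 3026 and 3198 in knockdown livers. Every knockdown liver lay below every control. The log2 fold change was -0.20 (SE 0.0663, 95% interval -0.34 to -0.06), and the adjusted p of 0.0523 just missed 0.05. It passed in 7 of the 15 alternatives, with adjusted p values from 0.0269 to 0.242 and log2 fold changes from -0.25 to -0.16.

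Bhlhe41 (ENSMUSG00000030256, minus strand of chromosome 6, 145858243 to 145865558) was the least abundant of the 9 genes. It had 117, 175 and 167 normalized counts in controls and 92.7, 125 and 108 in knockdown livers. Of the exon bases of Bhlhe41, 19.05% are overlapped by Gm43909 on the opposite strand, which had 0 to 2 counts per mouse. Whether the counting used the strand is not given, so the value of Bhlhe41 is uncertain as well. The groups overlapped only through control mouse 1, which lay below knockdown mouse 2. The log2 fold change was -0.49 (SE 0.185, 95% interval -0.88 to -0.10, adjusted p = 0.0943). Without control mouse 1 it was -0.65 with an adjusted p of 0.00568, and limma voom called it as well (-0.55, adjusted p = 0.0308). Only these 2 of the 15 alternatives called Bhlhe41. Over all 15 the log2 fold change was -0.65 to -0.38, with adjusted p values from 0.00568 to 0.314.

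Rora, the activator at ROR elements (ENSMUSG00000032238, plus strand of chromosome 9, 68653786 to 69388246), had 1762, 1525 and 1884 normalized counts with GalNAc-siNC. With GalNAc-siRnf10 it had 1638, 1654 and 1573. The knockdown values lay within the control range, and the log2 fold change was -0.09 (SE 0.0802, 95% interval -0.26 to 0.08, adjusted p = 0.53). None of the 15 alternatives called it.

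**Figure D3:**
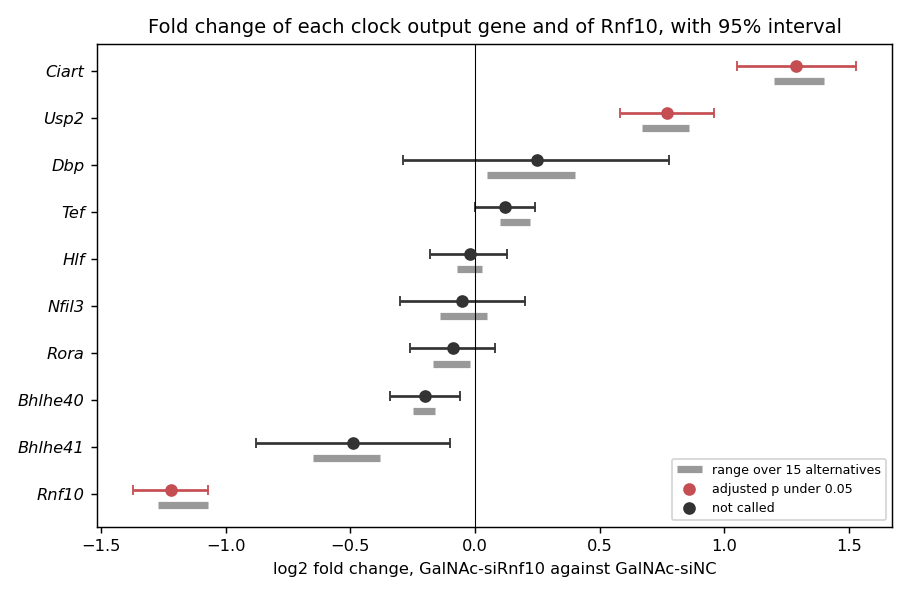
Log2 fold change of the 9 clock output genes and of Rnf10 (points, with 95% intervals), and beneath each the range over 15 alternative settings (grey bar). Ciart and Usp2 lie to the right of 0 under every setting, while the intervals of Dbp, Tef, Hlf, Nfil3 and Rora include 0.

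For 4 of the 9 genes, Ciart, Usp2, Tef and Bhlhe40, control and knockdown values had no overlap, beside 32.8% of all tested genes. For each of these the exact two-sided permutation test gave p = 0.1, the smallest p that 3 mice against 3 can give.

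Levels were compared between genes as TMM-scaled CPM per kilobase of gene model. In control livers Dbp was the most abundant at 29.2 ± 7.68 (SD, n = 3), followed by Bhlhe40 at 25.8 ± 1.61 and Tef at 23.2 ± 0.549. The range of Dbp, 20.6 to 35.1, took in those of Bhlhe40 and Tef, so its place among them is not settled by these mice. Its low end is control mouse 1, and the other controls were at 35.1 and 32.0. Hlf followed at 9.63 ± 0.676, Usp2 at 6.89 ± 0.876, Nfil3 at 5.38 ± 0.706, Ciart at 4.93 ± 0.665 and Rora at 4.45 ± 0.470. From Usp2 to Rora each gene overlapped the next in its range. Bhlhe41 was far below the rest at 0.767 ± 0.159. In knockdown livers Ciart moved from the seventh to the fourth place, at 12.1 ± 1.22, and overlapped Usp2 at 11.7 ± 0.708, both above Hlf at 9.47 ± 0.496. Tef at 25.2 ± 0.376 passed Bhlhe40 at 22.5 ± 0.678, and the remaining genes kept their order.

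**Figure D4:**
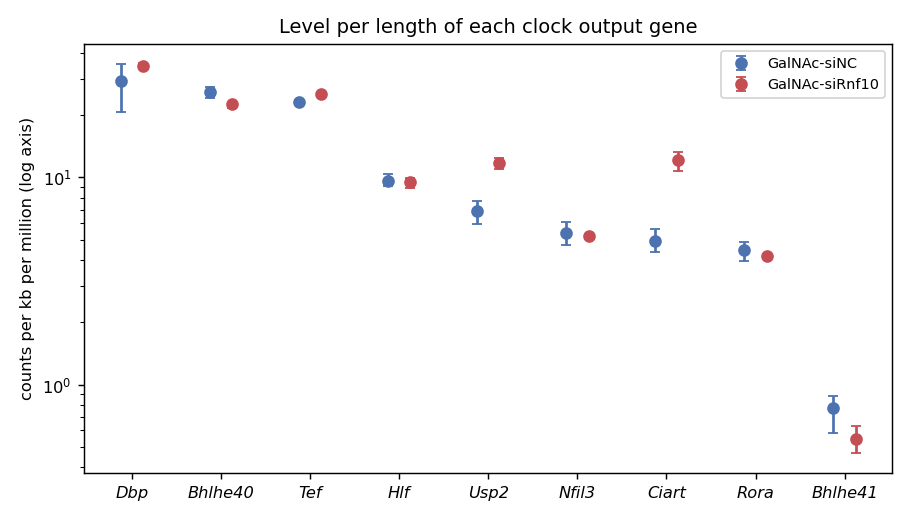
Level of each clock output gene in TMM-scaled CPM per kilobase (log axis), ordered by the control mean. Points are group means and bars run from the lowest to the highest of 3 mice. Ciart and Usp2 stand above their control ranges, and Bhlhe41 is lowest in both groups.

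Spread between mice differed from gene to gene. Among controls the coefficient of variation was 26.3% for Dbp and 20.8% for Bhlhe41 but 2.36% for Tef. Control mouse 1 accounted for most of the first 2 values, which were 6.48% and 3.45% over control mice 2 and 3 alone. The SD of log2 CPM of Dbp was above that of 87.5% of tested genes in controls, of 43.6% without control mouse 1, and above that of 15.8% in knockdown livers, where its coefficient of variation was 2.65%. Tef had a small spread in both groups, with 1.49% in knockdown livers. By this coefficient all 9 genes varied less within the knockdown group than within the control group, and 7 did without control mouse 1, Hlf and Bhlhe41 being the exceptions. The share of all tested genes that did the same was not computed. Over all genes the chi-square per gene was also higher among controls, at 10.3 between control mice 2 and 3 against 4.70 to 5.38 within the knockdown group. The smaller spread therefore cannot be called particular to the clock output genes, and it was not tested.

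Ratios of genes within a mouse do not depend on the scaling between libraries, and 4 were computed. Summed per kilobase, Dbp, Tef and Hlf together were 11.6, 12.8 and 10.4 times Nfil3 in control mice and 12.9, 13.7 and 13.5 times in knockdown mice. Every knockdown ratio was above the controls, by 0.21 on the log2 scale (0.13 without control mouse 3). The ratio of Rora to Nr1d1, the gene of the repressor REV-ERB-alpha at the same elements, was 0.232, 0.208 and 0.296 in controls and 0.388, 0.370 and 0.340 in knockdown mice, a difference of 0.59 on the log2 scale. Both ratios reached the smallest exact permutation p of 0.1 (two-sided, 0.2 adjusted over the 4 ratios). In the second, Nr1d1 had a log2 fold change of -0.68 and Rora -0.09. The other REV-ERB gene, Nr1d2, is not in the ratio. It had a log2 fold change of 0.19 and did not pass the test. The ratio of Dbp to Tef differed by 0.16 (exact permutation p = 0.9) and turned to -0.08 without control mouse 1, while that of Bhlhe40 to Bhlhe41 differed by 0.28 (exact permutation p = 0.3), by 0.51 without control mouse 1, and by 0.16 without control mouse 3 or knockdown mouse 1.

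Among the core clock genes, 4 of the 5 tested repressors rose, beside 6.71% of all tested genes. Per1, a period gene that also answers to glucocorticoid, went from 351 ± 18.8 to 1171 ± 62.9 normalized counts (SD, n = 3), a log2 fold change of 1.74. The other 3 were Cry1 at 0.75, Per2 at 0.42 and Per3 at 0.40 on the same scale. Nr1d1, a REV-ERB gene, fell by 0.68 on the log2 scale. Neither of the 2 tested activators, Arntl and Clock, passed the test, also at an unadjusted p under 0.05 and with DESeq2 or limma voom. Of 8 genes for kinases and ligases that act on clock proteins, 0 were called by edgeR or DESeq2, with 1 at an unadjusted p under 0.05 and 1 lower by limma voom and without control mouse 1.

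Liver genes that textbooks place downstream of the D-box factors rose together while Dbp, Tef, Hlf and Nfil3 did not pass the test. Of 8 tested, 8 were higher, beside 6.71% of all tested genes, with a median log2 fold change of 0.88. The list was drawn up with earlier results of these data known, so this count describes its genes and is no independent evidence. Cyp2a5, a coumarin hydroxylase, went from 10648 ± 348 to 28035 ± 141 normalized counts (SD, n = 3), a log2 fold change of 1.40. Its near-identical paralog Cyp2a4 belongs to the same list and could share reads with it, so both are uncertain. Cyp7a1, the rate-limiting enzyme of bile acid synthesis, had a log2 fold change of 1.02, Alas1, the first enzyme of heme synthesis, 0.75, and Cyp2c50, a drug-metabolizing cytochrome, 0.58. Several of these genes also answer to other regulators such as the nuclear receptor CAR. The count was 8 without control mouse 1 and between 6 and 8 over all settings, and it was 6 of 6, with a median of 0.68, with at least 10 counts in every mouse. That filter removed Cyp2a4, with 1 to 6 counts in controls and 19 to 30 in knockdown livers, and Cyp2b10, with 8 to 24 and 72 to 75, which had passed the filter on low counts through the group where they were high.

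Of the genes linked to ROR elements, 1 passed the test in each direction, beside 6.71% of all tested genes higher and 7.28% lower. Of 8 tested, G6pc, the last step of glucose release, was higher by 0.59 on the log2 scale and Cyp7b1, an oxysterol hydroxylase, was lower by a log2 fold change of -0.19. The count of lower genes was 0 with DESeq2, without control mouse 3 and without any 1 of the knockdown mice. Without control mouse 1 the count was 3 higher and 1 lower. Of 7 other E-box outputs 3 were higher and 1 lower, beside the same shares of all tested genes. Noct, the gene of nocturnin, had a log2 fold change of 1.88, Gys2, liver glycogen synthase, 0.48, and Nampt, an enzyme of NAD synthesis, 0.44. Klf10, a clock-controlled zinc finger gene, fell by 1.35.

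**Figure D5:**
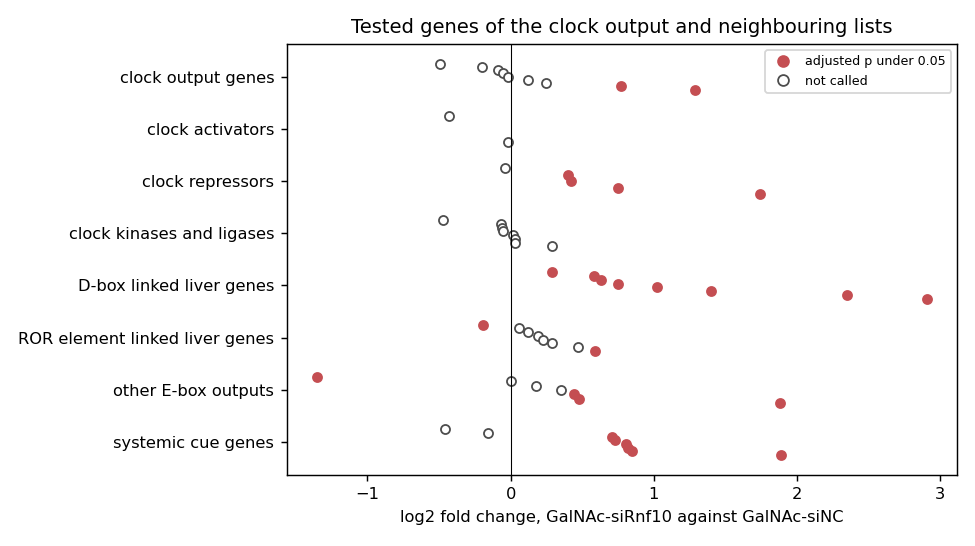
Log2 fold change of each tested clock output gene and of each tested gene in the neighbouring lists, filled where the adjusted p was under 0.05. The 8 tested D-box linked genes lie to the right of 0, while most clock output genes lie near it.

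Transcripts that follow body temperature or glucocorticoid were counted in the same way. Of 8 tested, 6 were higher and 0 lower by edgeR, beside 6.71% and 7.28% of all tested genes. DESeq2 and limma voom gave 1 lower, and 7 had an unadjusted p under 0.05 in either direction. Over all settings 5 to 7 were higher. This list too was drawn up with earlier results of these data known. Tsc22d3, the glucocorticoid-induced leucine zipper gene, had a log2 fold change of 1.89 and went from 1530 ± 33.5 to 5659 ± 219 normalized counts (SD, n = 3). Hsph1 and Hspa8, which encode heat shock proteins, had 0.81 and 0.73, and Fkbp5, a cochaperone gene induced by glucocorticoid, had 0.71. Cirbp and Rbm3, cold-inducible RNA-binding protein genes, did not pass the test and had -0.46 and -0.16. Their part in the values of the clock output genes was not tested.

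Marker lists of liver cell types were examined for the same reason, beside 6.71% of all tested genes higher and 7.28% lower. Of 5 hepatocyte markers 4 were higher (3 without control mouse 2, knockdown mouse 1 or knockdown mouse 2), and their summed normalized count was 1472506 to 1570778 in controls and 2240569 to 2324323 in knockdown livers. Most of that sum was Alb, with means of 1159043 and 1805569. The log2 fold changes were 1.19 for Cyp3a11, 0.66 for Ttr, 0.64 for Alb, 0.21 for Serpina1a and 0.08 for Apoa1, which was not called. Sinusoidal endothelial markers had 2 of 4 higher (1244 to 1285 against 1285 to 1357 summed, 1 of 4 higher with any mouse but control mouse 3 left out, and also 1 lower without control mouse 1), and stellate cell markers had 2 of 4 higher (2122 to 2241 against 2650 to 2765, 1 of 4 without knockdown mouse 1 or 2). None of 5 Kupffer cell markers was called by edgeR, DESeq2 or limma voom, with 1 at an unadjusted p under 0.05 and 1 lower without control mouse 1 (4117 to 4785 against 4437 to 4637). None of 4 cholangiocyte markers was called by edgeR or DESeq2, with 1 at an unadjusted p under 0.05 and 1 lower by limma voom and without control mouse 1 (175 to 250 against 150 to 171). The 1 tested neutrophil marker, S100a9, was lower (31.3 to 67.2 against 17.0 to 23.7 for the list), but it was called in only 1 of the 6 fits with a mouse left out, the fit without control mouse 1, and the 1 tested lymphocyte marker was not called (21.8 to 33.6 against 25.6 to 36.2). Muscle and adipose markers had at most 2 counts in any mouse, and 5 of the 6 were at 0 in all. The part of cell composition in the values above was not tested.

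The genes whose log2 CPM followed the mean standardized profile of Dbp, Tef and Hlf most closely over the 6 mice were Naa20, Ccdc171, Lyrm7, Nadk and Abcc10, with Pearson r from 0.9921 to 0.9956. For Nfil3 they were Ifitm3, Dennd1c, 1810058I24Rik, Axl and Ptrh2, with r from 0.9574 to 0.9752. At least 0.9 was reached by 132 of 10942 genes for the first profile and 54 of 10944 for the second. None of these 10 named genes was called between groups. The points share the libraries and the 2 groups. The genes averaged in the first profile did not move together: in control mouse 1 Dbp was the lowest of the 6 mice (1825) and Hlf the highest (2059).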

How the data were processed

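Liver mRNA of 6 mice was sequenced as stranded paired-end libraries. The authors used HISAT2 to map reads on GRCm38 and deposited raw gene counts, together with gene model lengths in bases, and used DESeq2 for their own test. The counting tool, annotation release and strand setting are not given in the sources used here. Treatment was taken from each title. Symbols came from GENCODE M21 (GRCm38), with 346 of 55487 identifiers unmatched. Promoter sequences are RefSeq's (GRCm38.p6).

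Counts were tested in edgeR 4.0.16 (R 4.3.3): filterByExpr, TMM, robust quasi-likelihood F-test, Benjamini-Hochberg adjustment over 14046 genes, threshold 0.05, treatment as the only term. Intervals use the fit's SE and degrees of freedom. A normalized count is a count divided by its library's TMM-scaled size over the mean of these sizes. Depth limits cover counting error only. Alternatives were RLE and upper quartile scaling, other filters, DESeq2 1.42.0, limma 3.58.1 voom with quality weights, a replicate block, offsets for GC content and length (splines of 5 degrees of freedom), a threshold of 0.01, and each mouse left out. List counts under these settings and the spread without GalNAc-siNC mouse 1 were added after seeing the data. In a simulation of this comparison with 14014 genes, 200 were shifted by 1 on the log2 scale, and 89.5% of those were recovered. The simulated counts had the same dispersion for every gene and no outlying mouse. This share therefore does not give the power for the smaller differences of the clock output genes that did not pass the test. Permutation tests used scipy 1.17.1, and figures matplotlib 3.10.9.

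The 9 genes and the lists were chosen with earlier results of these data known. Genes named besides them and Rnf10 are called genes of the lists, at most 4 a list by smallest p, and the 5 genes most like each of 2 profiles among genes averaging at least 50 normalized counts. Arntl, Clock, Nr1d2, Cirbp, Rbm3, Cyp2a4, Cyp2b10, Apoa1 and Sphk2 were named after their values were seen. One gene of the lists is not reported here.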

Additional observations from a re-analysis of the deposited data

How the results depend on the processing

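The rise of Ciart and of Usp2 was called in all 15 alternatives, and all genes called numbered 1042 at an adjusted p under 0.01 and 1053 to 2864 with 1 mouse left out, against 1965. The number of clock output genes called higher, 2, became 4 with GC content and length offsets plus the replicate block, which added Tef and Dbp (Tef alone was added by the offsets without the block). The number called lower, 0, became 1 with GC content and length offsets, with those offsets plus the block, with at least 10 counts in every mouse, with no filter, with upper quartile scaling (each time Bhlhe40) and with limma voom (Bhlhe41), and was 0 to 2 with 1 mouse left out. Without GalNAc-siNC mouse 1 both Bhlhe40 and Bhlhe41 were called, and without GalNAc-siNC mouse 3 Bhlhe40 was. Differences near 0 changed sign: Hlf was 0.0099 with limma voom, 0.03 without GalNAc-siNC mouse 1 and 0.02 without GalNAc-siRnf10 mouse 1, and -0.07 to 0.03 with any 1 mouse left out. Nfil3 was 0.05 without GalNAc-siNC mouse 3, in a range of -0.14 to 0.05, and the log2 ratio of Dbp to Tef was -0.08 without GalNAc-siNC mouse 1, in a range of -0.08 to 0.30. The cause was not tested. Without the length correction Tef, Bhlhe40 and Dbp led the control order. Equal mouse numbers in the groups name different animals, whose deviations correlated at -0.000993, 0.0272 and -0.0337 for numbers 1, 2 and 3. The replicate block gave 1816 genes and changed no call among the clock output genes. With 3 mice a group, the genes that did not pass the test have 95% intervals that still allow a difference of the sizes printed.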
